A study of Saccharomyces cerevisiae with 9 samples.

Results

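The triple mutant of budding yeast that lacked SEG1, NCE102 and PIL1 was compared with wild type across all genes with enough reads. Genes entered the comparison when their mean over the 6 libraries was at least 10 normalized reads, which 5881 of the 6215 genes in the table did, and the other 334 were not tested. Wild type was BY4742, with the genotype MATα his3Δ1 leu2Δ0 lys2Δ0 ura3Δ0. The triple mutant was MATα his3Δ1 leu2Δ0 LYS2 MET15 ura3Δ0 seg1Δ nce102Δ pil1Δ. Both strains thus shared MATα and the his3, leu2 and ura3 alleles, and they differed at LYS2 as well as at the 3 deleted genes. Each strain gave 3 libraries, labelled as biological replicates. The labels do not say whether the mutant was more than 1 clone, so the p-values measure the spread between cultures. The 3 libraries of a pil1Δ strain of the same series were also in the fit. Their spread thus enters the p-values, but they were not compared. No treatment was given, cultures were taken after 24 h in synthetic complete medium kept at 28 °C, cells of both strains were washed in 10 mM NaF/NaN3 before lysis, and the labels give no cell density at harvest. The study set out to compare gene expression between wild type and eisosome mutants.

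Eisosomes are protein assemblies on the inner face of the yeast plasma membrane that form furrow-shaped membrane compartments. The BAR-domain proteins Pil1 and Lsp1 build the coat of the furrow, Seg1 helps to lay it down and keep it stable, and the tetraspan proteins Nce102 and Sur7 sit in the membrane above it. The compartments hold nutrient permeases and regulators of sphingolipid synthesis, and Nce102 also takes part in the sphingolipid control of the Pkh kinases.

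A total of 3584 genes, or 60.9% of those tested, were called at an adjusted p under 0.05 with limma. The split was 1771 higher (30.1%) and 1813 lower (30.8%) in the triple mutant. When the libraries were scaled by their total reads instead, the median log2 fold change of all genes moved from -0.01 to -0.23 and the split became 1029 higher and 2373 lower, so the balance of rises and falls depends on the scaling. Single values of change below are log2 fold changes, triple mutant minus wild type, unless written as a fold. The change was at least 2-fold for 469 genes higher and 702 lower, at least 4-fold for 134 and 124, and at least 16-fold for 14 and 12. Libraries of the 2 strains did not overlap for 65.6% of the genes tested. Every one of the 3584 called genes lay on the same side of the wild type mean in each of the 3 triple mutant libraries. The genes were called on these same libraries, which makes that outcome likely, so it is no separate support. Depth, as whole reads, was 24932904 to 26381388 in wild type and 21064051 to 23671868 in the triple mutant. In a bulk sample, fewer cells of a kind and less RNA per cell cannot be told apart.

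**Figure D1:**
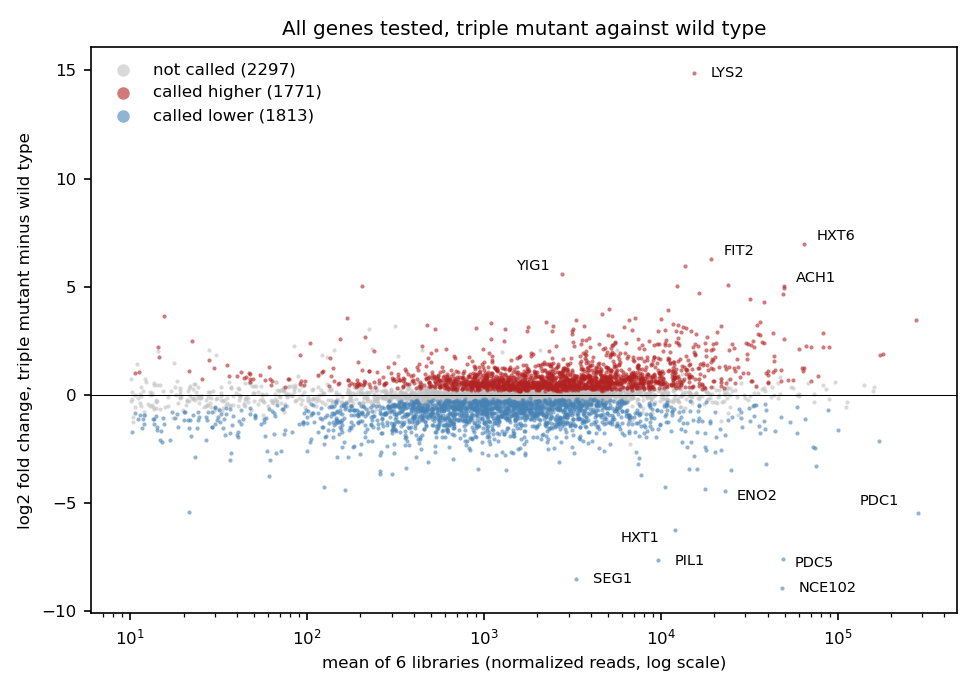
Each point is 1 of the 5881 genes tested, with its mean over the 6 libraries in normalized reads (horizontal, log scale) and its fitted log2 fold change of triple mutant minus wild type (vertical). Called genes lie on both sides of 0 at all levels. LYS2, SEG1, PIL1 and NCE102 stand at the edges, and the height of LYS2 depends on the added 1 read because wild type was at 0.

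The deleted genes followed the genotypes. PIL1 (YGR086C) had 15878, 20364 and 21404 normalized reads in replicates 1 to 3 of wild type against 89.9, 91.3 and 99.9 in those of the triple mutant, which left 0.488% of the wild type mean. SEG1 (YMR086W) was left at 0.276% and NCE102 (YPR149W) at 0.211%. LYS2, the gene of a reductase in lysine synthesis, was at 0 reads in each wild type library and had 24790, 31688 and 35639 normalized reads in the triple mutant. That is at least 11130-fold higher against a floor of 3 reads per library, which covers counting error only. For every gene compared here, effects of the LYS2 difference and of the 3 deletions cannot be told apart. Of 9 other genes of lysine synthesis, LYS1, LYS4 and LYS12 fell, with log2 fold changes of -0.69, -0.72 and -0.51. LYS14, the activator of the pathway, and LYS20, a homocitrate synthase gene 95.3% identical to LYS21, rose by 0.54 and 0.81.

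Genes next to the deleted ones showed no common direction. Beside PIL1, RPL11B fell with a log2 fold change of -1.13 (SE 0.23), which reads on its 97% identical copy RPL11A could affect, and PDC6 rose from 632, 414 and 585 normalized reads to 2038, 1327 and 1665. PDC6 is a minor pyruvate decarboxylase gene, and its log2 fold change was 1.62 (SE 0.23, adjusted p = 0.000274). Beside NCE102, YPR148C rose by 0.53 and SUE1 by 1.29. The rise of YPR148C ended when libraries were scaled by total reads (0.30, adjusted p = 0.103). The neighbours of SEG1 and LYS2 were not called, with YMR085W at -0.46, PDL32 at 0.14, RAD16 at 0.02 and TKL2 at 0.07.

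Of 21 other genes of the eisosome and its furrow, 11 rose and 1 fell, and their median log2 fold change was 0.39. When libraries were scaled by total reads, 7 rose and 2 fell, with a median of 0.17. LSP1, the paralog of PIL1, had 23342, 32777 and 33106 normalized reads in wild type and 57259, 63796 and 75541 in the triple mutant. The groups did not overlap, and the log2 fold change was 1.15 (SE 0.19, adjusted p = 0.000641 by limma). MDG1, a plasma membrane protein gene linked to pheromone signalling, rose from 1402, 2059 and 1781 to 5713, 5224 and 6075 normalized reads. EIS1, an eisosome protein gene, rose by 1.07 on the log2 scale and PKH2, a kinase gene of the sphingoid base pathway, by 0.89. The paralogs of the other deleted genes were not called. SEG2 was at 0.06 with a 95% confidence interval of -0.20 to 0.32, and FHN1, the paralog of NCE102, at 0.08 with an interval of -0.45 to 0.62.

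The tetraspan membrane protein genes of the furrow moved apart from each other. YNL194C had 1902, 5393 and 3412 normalized reads in wild type and 28569, 10161 and 14020 in the triple mutant, with replicate 1 highest. FMP45 rose by 1.07 on the log2 scale. PUN1, which is induced under nitrogen stress, fell from 2288, 2092 and 2742 to 1040, 771 and 914. SUR7 had 263, 640 and 330 against 312, 465 and 424, so its groups overlapped, with an interval of -0.78 to 0.88. The median of these 5 genes was 0.08, and -0.14 when libraries were scaled by total reads.

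Beyond LYS2 and the deleted genes, the largest rise was that of HXT6. HXT6, a high-affinity hexose transporter gene, had 1039, 915 and 957 normalized reads in wild type and 153580, 83399 and 144520 in the triple mutant. HXT7 rose from 3077, 3127 and 2920 to 73722, 80485 and 133870. The coding sequences of this pair are 99.8% identical, so the share of each is uncertain. The fitted folds were 127 and 30.5. TMA10, a ribosome-associated protein gene, rose 25-fold, from 3995, 3588 and 3739 to 98620, 83906 and 101070. EGO4 and the kinase gene MRK1, related to the glycogen synthase kinases, rose 19.4-fold and 15-fold, and neither rise rested on replicate 1, in which both were lowest of the 3 triple mutant libraries.

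The 15 largest falls included PDC5, CWP2 and SPH1. PDC5, a pyruvate decarboxylase gene, had 123660, 80861 and 85867 normalized reads in wild type and 460, 552 and 474 in the triple mutant. CWP2, a major mannoprotein of the wall, had 13043, 12979 and 17162 against 1352, 917 and 1005. SPH1, a gene of polarised growth, had 395, 551 and 477 against 38.7, 42 and 39.2. In each of these 3 genes the mutant libraries lay close together and far below wild type. Others among the 15 largest falls were TPO2, a polyamine exporter gene 97.2% identical to TPO3, at 11.1-fold, IRC7, a cysteine desulfhydrase gene, at 11-fold, and PRM6 at 13.3-fold (8.61-fold without triple mutant replicate 3). EFM6, a methyltransferase gene for translation elongation factor, fell 12.5-fold.

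**Figure D2:**
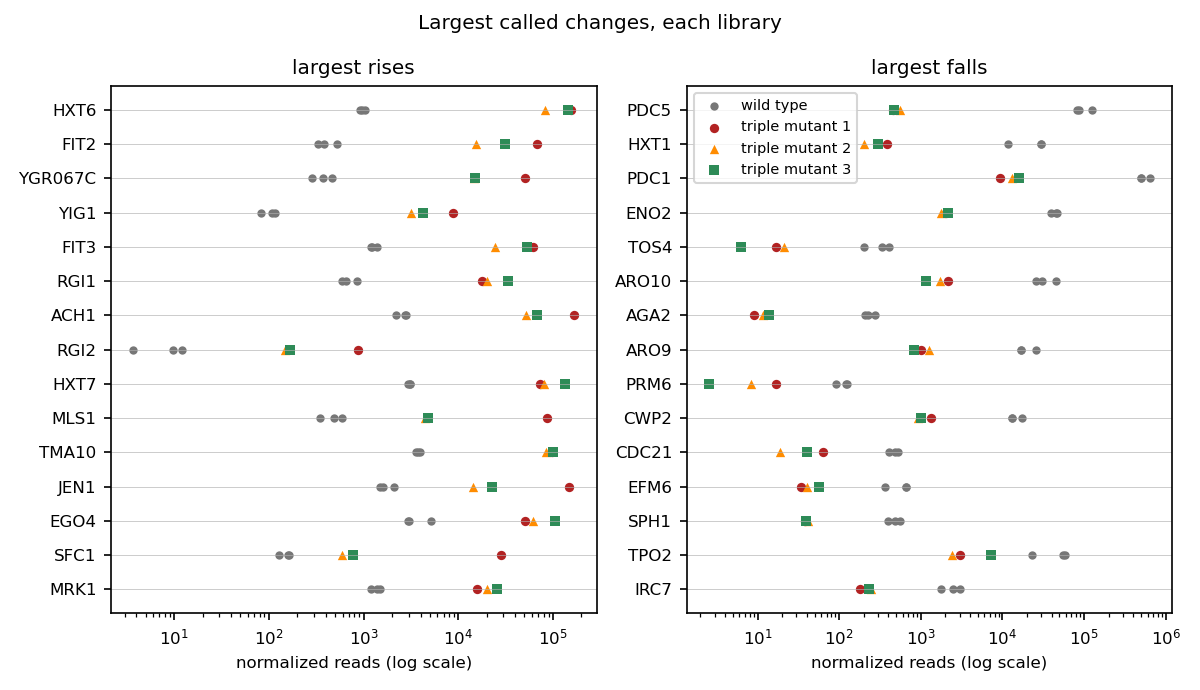
Normalized reads (log scale) in every library for the 15 genes with the largest called rises (left) and the 15 with the largest called falls (right), wild type in grey and the 3 triple mutant libraries in colour. The genes were chosen for groups that do not overlap, and replicate 1 stands above the other mutant libraries in MLS1, SFC1 and JEN1.

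Transcripts of glycolysis and ethanol formation fell: of 21 genes, 16 fell and 3 rose, and the median log2 fold change was -1.87. The 3 that rose were PDC6 and the hexose kinase genes HXK1 and GLK1. HXK1 had 15901, 20230 and 16941 normalized reads in wild type and 61100, 173820 and 204290 in the triple mutant, and GLK1 rose by 2.24 on the log2 scale. GLK1 overlaps another gene by 106 bases. CDC19, the main pyruvate kinase gene, fell from 148010, 113560 and 145290 to 10533, 15556 and 16114. ENO2, whose copy ENO1 is 94.9% identical, fell by 4.46 and PGK1, phosphoglycerate kinase, by 1.77. The fall was deepest in replicate 1, where the list median was -2.67 against -1.70 and -1.45 in replicates 2 and 3.

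Of 22 genes of hexose transport and sensing, 11 rose and 3 fell, or 7 and 6 when libraries were scaled by total reads. SNF3, the sensor of low glucose, rose from 1869, 1953 and 1579 to 9591, 8136 and 9046, and MTH1, a repressor of hexose transporter genes, rose by 1.98 on the log2 scale. The transporters of low affinity went the other way. HXT1 had 29330, 11731 and 30022 normalized reads in wild type against 388, 200 and 298, and HXT3 had 169460, 59917 and 140140 against 8051, 29711 and 34890. The log2 fold change of HXT3 was -2.47, and -1.80 without triple mutant replicate 1. HXT14, the third to fall, was at -1.53. HXT4 had 49372, 12412 and 21972 in wild type and 41306, 153650 and 217490 in the mutant, so its groups overlapped. Its rise was 4.68-fold and 7.68-fold without replicate 1, and the call ended when replicate 2 or 3 of either strain was left out (adjusted p between 0.0667 and 0.0984).

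Regulators of glucose repression and respiration showed more rises than falls, with 19 higher and 4 lower of 33. Among the 17 activators, 11 rose and 0 fell by limma, edgeR or DESeq2, with 1 lower at an unadjusted p under 0.05. When libraries were scaled by total reads, limma called 8 activators higher and 4 lower. The whole list then gave 15 higher and 8 lower. CAT8, which activates gluconeogenic genes, had 2222, 2210 and 2426 normalized reads in wild type and 31496, 15902 and 20434 in the triple mutant. ADR1, an activator of ethanol and fatty acid use, rose by 2.62 on the log2 scale, and RDS2, a regulator of gluconeogenesis, by 1.26. HAP4, the activating subunit of the CCAAT-binding complex, rose from 11736, 5723 and 11972 to 70494, 52163 and 66288. In the reported fit, the members that fell were the repressors MIG2, MIG3 and NRG2 and the Snf1 complex subunit GAL83. MIG3 fell from 1209, 1338 and 1428 to 360, 315 and 317. The fall of MIG2, at -1.45 (adjusted p = 0.0318), lost its call without any single library other than wild type replicate 2 (adjusted p between 0.0525 and 0.115). That of GAL83, at -0.26 with overlapping groups, did so without 4 of the 6 (adjusted p between 0.0878 and 0.112).

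Transcripts of nuclear genes for respiration rose in every complex. Among 43 nuclear genes for respiratory complexes, cytochrome c and the ATP synthase, 42 rose and 0 fell by limma, also at an unadjusted p under 0.05 and with edgeR or DESeq2. List medians against wild type were 2.47, 1.76 and 2.11 in replicates 1 to 3. All 16 ATP synthase genes, all 11 of the cytochrome bc1 complex and cytochrome c, and all 7 dehydrogenase genes rose. SDH4, a succinate dehydrogenase subunit, rose from 3298, 3406 and 3378 to 32168, 20822 and 25858. The 1 gene not called was COX5B, the isoform of cytochrome c oxidase subunit 5 used at low oxygen. It had 4668, 5128 and 5418 against 5248, 5166 and 7207, with overlapping groups. COX5A, the isoform of aerobic growth, had 2191, 1943 and 2050 against 25585, 11188 and 14694. In the tricarboxylic acid cycle list, 19 were called higher and 1 lower of 21. SDH1 had 6580, 6593 and 6319 against 83584, 45864 and 59362.

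The Hap complex binds the CCAAT box, so promoters of SDH1 and COX5A are shown with the letters CCAAT in capitals on either strand. They run from 300 to 101 bases before the start codon in the R64 genome, SDH1 at chrXI:171230-171429 on the minus strand and COX5A at chrXIV:531425-531624 on the plus strand.
SDH1: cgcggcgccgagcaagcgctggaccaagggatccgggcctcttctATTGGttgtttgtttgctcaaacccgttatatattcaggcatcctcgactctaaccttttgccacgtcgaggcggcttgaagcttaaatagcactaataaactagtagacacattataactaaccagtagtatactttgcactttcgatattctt
COX5A: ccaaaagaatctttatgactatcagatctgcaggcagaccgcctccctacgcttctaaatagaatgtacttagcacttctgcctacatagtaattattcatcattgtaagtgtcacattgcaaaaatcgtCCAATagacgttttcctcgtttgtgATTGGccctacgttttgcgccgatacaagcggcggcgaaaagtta
CCAAT occurred within 300 bases of the start codon in 83.7% of the respiratory chain genes and 71.4% of the tricarboxylic acid cycle genes, against 42.1% of all 5902 promoters read. It also occurred in 73.1% of the phospholipid synthesis promoters, a list that fell. Over all called genes it occurred in 45.5% of those higher and 41.9% of those lower. A match of letters is a description and not a binding site.

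Other mitochondrial genes rose by less. Of 70 genes of the mitochondrial ribosome, 65 rose and 0 fell by limma, with a median log2 fold change of 0.70. At an unadjusted p under 0.05 there were 2 lower, and edgeR called 1 lower and DESeq2 0. Scaling by total reads gave 46 higher and 2 lower, with a median of 0.47. MRPL35 rose from 657, 670 and 758 to 2487, 1801 and 2113. Import gave 21 higher and 3 lower of 36 with a median of 0.36, or 11 higher and 8 lower with a median of 0.14 when scaled by total reads, and the matrix chaperonin gene HSP60 rose by 1.32. Heme and iron-sulfur synthesis gave 12 higher and 2 lower of 26. HEM2, a heme synthesis gene, rose by 1.49, COX15, which makes heme a, by 1.36, and SSQ1, a chaperone of iron-sulfur clusters, by 1.87. Coenzyme Q synthesis gave 5 higher and 3 lower of 11, with COQ9 at 1.09, or 4 higher and 4 lower when scaled by total reads. Carriers of the inner membrane were split, with 11 higher and 6 lower of 23. ODC1, an oxodicarboxylate carrier, rose from 654, 650 and 654 to 11293, 4075 and 4655, and MPC3, the pyruvate carrier subunit of respiratory growth, by 3.75. PET9, the main ADP/ATP carrier, rose by 2.38, whereas its isoform AAC3, known for anaerobic growth, fell from 40.2, 45.1 and 42.3 to 23.9, 13.6 and 8.85.

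Genes of gluconeogenesis and of ethanol, acetate and lactate use rose, and the 3 mutant libraries differed widely. Of 28 genes, 21 rose and 0 fell by limma, while edgeR, DESeq2 and an unadjusted p under 0.05 each gave 1 lower. The list median against wild type was 3.98 in replicate 1, 1.05 in replicate 2 and 1.33 in replicate 3. Without replicate 1 the count was 24 higher and 1 lower with a median of 1.19. ACH1, a CoA transferase of acetate metabolism, had 2214, 2803 and 2743 normalized reads in wild type and 169130, 51888 and 67907 in the triple mutant. ICL1, isocitrate lyase of the glyoxylate cycle, had 2446, 2485 and 2401 against 192070, 9226 and 9380. Its 3 mutant libraries all lay above wild type, with replicate 1 far above the others, and the rise was 10.4-fold with all libraries and 3.81-fold without replicate 1. ICL1 was not called with only the 6 libraries in the fit (adjusted p = 0.0534) or without wild type replicate 2 (adjusted p = 0.0609).

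A few genes stood far higher in replicate 1 than in the other 2 mutant libraries. ADY2, an acetate transporter gene, had 112, 131 and 116 normalized reads in wild type and 6982, 117 and 129 in the triple mutant, so replicates 2 and 3 lay within the wild type range. CRC1, the mitochondrial carnitine carrier, had 791, 939 and 923 against 28632, 1241 and 1373, so replicates 2 and 3 also lay above wild type. Neither was called, and without replicate 1 CRC1 was at 0.57 on the log2 scale (adjusted p = 0.00211) and ADY2 at 0.04. edgeR on the recovered reads called both (adjusted p = 0.019 and 0.0245). PUT4, the proline permease, had 1369, 1805 and 1222 against 18771, 1100 and 1113, which gave 0.98 with all libraries and -0.38 without replicate 1, neither of them called. MLS1, malate synthase, rose 26.4-fold, and 9.9-fold without replicate 1. SFC1, a succinate-fumarate carrier gene, rose 15.7-fold, and 4.51-fold without it. YAT1, a carnitine acetyltransferase gene, rose 8.69-fold, and 3.21-fold without it, and with only the 6 libraries in the fit neither SFC1 (adjusted p = 0.0628) nor YAT1 (adjusted p = 0.0656) was called. Leaving out wild type replicate 1 or 2 ended both calls too (adjusted p between 0.0531 and 0.0796), and leaving out wild type replicate 3 ended that of YAT1 (adjusted p = 0.0545).

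Other genes of the same list varied. ADH2, the alcohol dehydrogenase of ethanol use, was at 0.02 with overlapping groups. PCK1, the key enzyme of gluconeogenesis, had 527, 465 and 487 normalized reads in wild type and 36849, 2260 and 2330 in the mutant, a rise of 11.7-fold and 4.66-fold without replicate 1. FBP1, fructose bisphosphatase, had 358, 392 and 400 against 10020, 578 and 707 and was not called with all libraries. It was called without any 1 of the mutant replicates, at 0.74 without replicate 1 (adjusted p = 0.000919), and by edgeR (adjusted p = 0.0164). MAE1, the malic enzyme gene, had 44664, 13509 and 35774 against 16166, 7324 and 14048, with overlapping groups. It was called without wild type replicate 2, at -1.75 (adjusted p = 0.009), and by edgeR (adjusted p = 0.0406), which made it the 1 member lower there.

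The carbon source-responsive element, bound by Cat8 and Sip4, has a core of CC and CCG separated by any 6 bases. The stretch around 1 such core, in capitals with 40 bases on each side, is shown for ICL1, PCK1, CRC1 and ADH2. ICL1 and PCK1 were called higher with all libraries, and CRC1 and ADH2 were not called. In ICL1, PCK1 and CRC1 all mutant libraries lay above wild type, with replicate 1 far highest, and ADH2 did not rise. The stretches lie at chrV:287262-287352 (ICL1, minus strand), chrXI:630631-630721 (PCK1, plus strand), chrXV:514486-514576 (CRC1, minus strand) and chrXIII:874765-874855 (ADH2, minus strand).
ICL1: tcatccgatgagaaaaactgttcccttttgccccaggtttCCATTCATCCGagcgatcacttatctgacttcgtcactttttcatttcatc
PCK1: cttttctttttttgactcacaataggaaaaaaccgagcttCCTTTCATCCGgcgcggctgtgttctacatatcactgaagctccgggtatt
CRC1: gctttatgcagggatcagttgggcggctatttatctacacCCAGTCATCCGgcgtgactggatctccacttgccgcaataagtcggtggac
ADH2: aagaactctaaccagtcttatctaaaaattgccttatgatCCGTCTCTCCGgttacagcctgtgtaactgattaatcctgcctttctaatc
Within 300 bases of the start codon the core occurred in 25% of these 28 promoters against 11.2% of all promoters, and within 600 bases, a window chosen after seeing the data, in 71.4% against 24.8%. The share within 300 bases was not particular to this list. It was 23.2% in the cytosolic ribosome list, which fell, and 30.8% in heme and iron-sulfur synthesis. The wider window was searched in a few sets only. ADH2 holds the core and was not called. In 120 promoters of genes over 2-fold higher in replicate 1 than in the mean of the other 2, the share within 600 bases was 45.8%. Those genes include members of this same list.

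Over all genes, replicate 1 lay over 2-fold from the mean of the other 2 mutant libraries in 168 genes, 135 of them higher. Replicates 2 and 3 did so in 72 and 59 genes. Wild type replicate 2 did so in 168 genes too, but 139 of those were lower. Of the 135 genes high in replicate 1, 70 were called with it and 84 without it, and 58 were called higher in each fit, 56 of them in both. By list, 19 of 28 gluconeogenesis genes were over 2-fold higher in replicate 1, as were 5 of 5 mitochondrially encoded genes and 7 of 33 iron uptake genes, against 2.3% of all genes. Leaving out replicate 1 gave 3484 calls, of which 3297 were shared with the full fit.

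**Figure D3:**
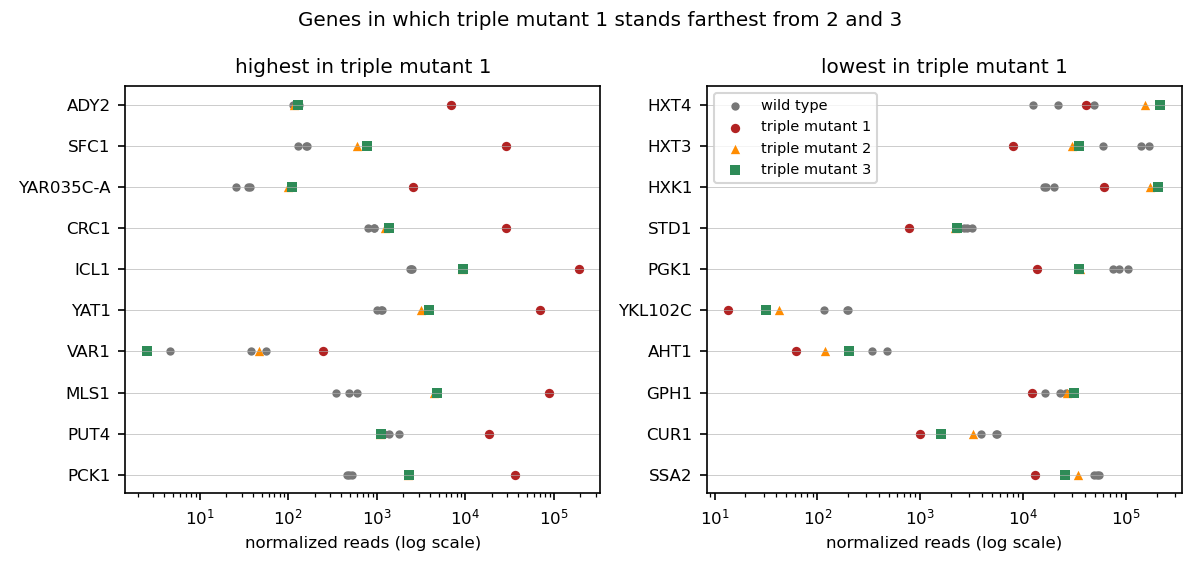
Normalized reads (log scale) in every library for the 10 genes in which triple mutant replicate 1 lay highest (left) and lowest (right) against the mean of replicates 2 and 3, chosen on these values. In ADY2 and PUT4 replicates 2 and 3 lie with or below wild type, while in ICL1, YAT1, MLS1 and PCK1 all 3 mutant libraries lie above it.

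Mitochondrially encoded transcripts were thinly covered after poly(A) selection, which is known to pass few yeast mitochondrial transcripts. Of 12 tested genes on the mitochondrial genome, 0 were called by limma, with 2 higher at an unadjusted p under 0.05, 2 called by edgeR and 3 by DESeq2. With the replicate number as a block, limma called 10 higher. The numbers were not taken as pairs, so the count of 0 rests on that choice. The median of the 12 genes against the wild type mean was 3.49, 1.54 and 0.42 in mutant replicates 1 to 3 and 1.22, 0.61 and -1.66 in wild type. COX1, cytochrome c oxidase subunit 1, had 176, 149 and 35 normalized reads in wild type and 1121, 387 and 93.6 in the mutant, and was called without triple mutant replicate 3 (2.74, adjusted p = 0.0291 by limma). Nuclear chromosomes had medians between -0.12 on chromosome III and 0.11 on chromosome XI, and none stood apart as a whole.

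Iron uptake genes rose, led by those for siderophores, the small chelators that carry iron. Of 33 genes, 23 rose and 2 fell with a median log2 fold change of 0.80, and of 7 genes of siderophore uptake and wall retention 6 rose with a median of 1.73. FIT2, a wall mannoprotein that retains siderophores, had 379, 530 and 332 normalized reads in wild type and 67165, 15445 and 31252 in the triple mutant. FIT3 had 1238, 1374 and 1196 against 62101, 24628 and 53778. SIT1, a ferrioxamine transporter, had 563, 868 and 474 against 10603, 2732 and 3564, a rise of 7.63-fold and 5.07-fold without replicate 1. All mutant libraries of these 3 genes lay above all wild type libraries, with replicate 1 highest. ARN1 and ARN2, further siderophore transporters, rose by 1.50 and 1.73 and FIT1 by 0.87. ENB1, the enterobactin transporter, was not called at 0.10.

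The genes that sense and take up reduced iron moved less evenly. FET3, the multicopper oxidase of high-affinity uptake, had 3383, 3777 and 1944 normalized reads in wild type and 27362, 11473 and 16100 in the mutant. FTR1, its permease partner, had 1840, 2087 and 1213 against 4850, 1948 and 2630, with overlapping groups and no call (0.80, adjusted p = 0.0507 by limma), while edgeR and DESeq2 on the recovered reads called it (adjusted p = 0.0418 and 0.0104). AFT1, the main activator of the regulon, rose by 0.98, AFT2 was at -0.41 and called without wild type replicate 2 or when scaled by total reads, and TIS11, which degrades transcripts of iron-using proteins, rose by 2.12. SMF3, a vacuolar iron exporter gene, rose by 1.34. The 2 genes that fell were MRS3, a mitochondrial iron carrier, at -0.84, and FRE4, a siderophore reductase gene, at -0.46.

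Aft1 recognises a core of TGCACCC, shown in capitals on either strand in the promoters of the 2 genes of iron retention that rose most, from 300 to 101 bases before the start codon. FIT2 lies at chrXV:1059231-1059430 on the plus strand and FIT3 at chrXV:1061156-1061355 on the minus strand.
FIT2: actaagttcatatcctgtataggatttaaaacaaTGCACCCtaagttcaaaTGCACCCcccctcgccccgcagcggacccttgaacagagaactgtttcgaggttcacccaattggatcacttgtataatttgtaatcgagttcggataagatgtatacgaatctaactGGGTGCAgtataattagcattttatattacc
FIT3: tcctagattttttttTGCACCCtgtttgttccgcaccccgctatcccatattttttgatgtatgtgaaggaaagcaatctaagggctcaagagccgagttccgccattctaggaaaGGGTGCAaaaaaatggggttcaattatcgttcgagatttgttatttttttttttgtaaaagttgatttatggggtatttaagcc
FIT2 holds 3 matches and FIT3 holds 2 in the stretch shown. Within 300 bases the core occurred in 42.4% of the 33 iron uptake promoters and 85.7% of the 7 of siderophore uptake and wall retention, against 1.32% of all promoters.

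Of 11 genes of the plasma membrane proton pump and its partners, 4 fell, 1 rose and 6 were not called, a share lower of 36.4% that is near the 30.8% of all genes. PMA1, the pump that drives nutrient uptake, had 166080, 114130 and 173400 normalized reads in wild type and 53865, 37052 and 55139 in the triple mutant. MRH1, a membrane protein related to the pump's regulator Hsp30, had 27923, 23818 and 28938 against 2335, 4232 and 5476. AST1, which helps deliver the pump to the surface, had a log2 fold change of -2.47, and of -3.09 without wild type replicate 2, the lowest of its group. PMP1, a small proteolipid of the pump with a near-identical copy in PMP2, fell by 0.93. HSP30, which lowers pump activity under stress, rose from 34320, 42285 and 55256 to 707400, 307520 and 513930.

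Phospholipid synthesis genes fell, with 19 lower and 1 higher of 26 and a median log2 fold change of -1.20. ITR1, the inositol transporter, had 32196, 30513 and 29566 normalized reads in wild type and 6681, 4728 and 4721 in the mutant. EPT1 and CPT1, which complete phosphatidylethanolamine and phosphatidylcholine, fell by 2.35 and 1.60, and PSD1, phosphatidylserine decarboxylase, by 1.90. FAS1 and FAS2, fatty acid synthase, fell by 1.71 and 2.43. INO1, inositol phosphate synthase, was at -0.58 with overlapping groups, and its call ended without 4 of the 6 libraries in turn (adjusted p between 0.0663 and 0.122). PAH1, the phosphatase that turns phosphatidate towards storage lipid, went the other way, from 2820, 3534 and 3001 to 8891, 5823 and 5377.

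Sphingolipid genes were split, with 11 higher and 14 lower of 34 and a median of 0.00, or -0.22 when libraries were scaled by total reads. These shares, 32.4% higher and 41.2% lower, stand beside 30.1% and 30.8% of all genes. The fatty acid elongases ELO1, ELO2 and ELO3 fell by 1.54, 2.13 and 1.29. Among the rises were ORM2, an inhibitor of serine palmitoyltransferase, at 1.44, YPC1, a ceramidase, at 1.84, RSB1, a sphingoid base exporter, at 1.10, and TOR2 and AVO1 of TOR complex 2 at 0.68 and 0.54. Of 32 ergosterol genes, 17 fell and 5 rose. ERG25, a sterol demethylation enzyme, fell from 12134, 13120 and 12021 to 3914, 3942 and 3062, whereas HMG2, the minor HMG-CoA reductase, rose by 0.73.

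The cell wall list was mixed with more falls than rises, at 32 lower and 15 higher of 64. EXG1, a major glucanase of the wall, had 16341, 10485 and 13252 normalized reads in wild type and 1781, 1134 and 1449 in the mutant, and ECM33, a wall mannoprotein, fell by 1.74. SPI1, a wall protein of stationary phase, rose from 8560, 7924 and 12668 to 60870, 37537 and 54668, and PIR3 and the glucan synthase gene GSC2 rose by 1.84 and 1.64. In the wall integrity pathway the sensor genes MTL1, MID2 and SLG1 rose by 1.27, 0.79 and 0.36. The kinase genes PKC1, MKK1 and MKK2 rose by 0.36, 0.29 and 0.32. When libraries were scaled by total reads, SLG1, PKC1, MKK1 and MKK2 were at 0.13, 0.13, 0.07 and 0.09 and not called, and MKK1 lost its call in 4 fits without 1 library. SLT2, the last kinase of the cascade, fell from 9123, 10942 and 9046 to 2261, 2927 and 2817, with groups far apart. Protein mannosylation and glycosylation gave 14 lower and 5 higher of 33, led by MNN1, an alpha-1,3-mannosyltransferase, at -3.10, with the O-mannosyltransferase gene PMT2 at -1.35.

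Cytosolic ribosomal protein genes fell, with 129 lower and 0 higher of 138, the latter also at an unadjusted p under 0.05 and with edgeR or DESeq2. The medians were -1.34, -1.09 and -0.97 in mutant replicates 1 to 3. RPS22A had 3398, 2348 and 3116 normalized reads in wild type and 320, 511 and 456 in the mutant, whereas RPS22B, 90.4% identical to it, had 1106, 390 and 1236 against 948, 641 and 987 and was not called. RPS22B overlaps another gene by 211 bases. Ribosome biogenesis gave 37 lower and 4 higher of 92, or 60 lower and 2 higher when scaled by total reads. Wild type itself spread widely in that list, with medians of 0.37, -0.47 and 0.14 about its own mean. NOP58, a core protein of box C/D snoRNPs, had 6035, 2241 and 5280 in wild type, with replicate 2 lowest, against 828, 919 and 1020. GAR1, of the H/ACA snoRNPs, fell from 1568, 1182 and 1353 to 466, 521 and 516. RNA polymerase I and III genes gave 15 lower and 4 higher of 33, with RPA49, a subunit of polymerase I, at -1.37 and BRF1, an initiation factor of polymerase III, at 0.90. Translation factors gave 12 lower and 3 higher of 44 with EFB1, of elongation factor 1B, at -0.91, and of 21 cytosolic tRNA synthetase genes 6 fell and 1 rose. The shares lower in these lists, 27.3% and 28.6%, were near the 30.8% of all genes. Their shares higher, 6.82% and 4.76%, were under the 30.1% of all genes. Scaled by total reads, the translation factors gave 23 lower and 2 higher and the tRNA synthetases 12 lower and 0 higher. All 5881 genes tested then gave 2373 lower and 1029 higher. Of 11 genes of RNA polymerase II 3 rose and 1 fell, which became 1 higher and 6 lower when scaled by total reads.

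Promoters of ribosome biogenesis genes are known for the PAC element, searched here as GATGAG. It occurred in 90.2% of the 92 ribosome biogenesis promoters and 60.6% of the 33 of RNA polymerase I and III, against 18.8% of all. The promoter of RPA49, at chrXIV:182709-182908 on the minus strand, is shown as an example that holds the element, in capitals.
RPA49: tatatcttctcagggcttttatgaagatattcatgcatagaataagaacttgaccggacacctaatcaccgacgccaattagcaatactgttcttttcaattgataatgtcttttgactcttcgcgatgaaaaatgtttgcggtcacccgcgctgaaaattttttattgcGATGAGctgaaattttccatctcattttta
Among all called genes the share was 19.9% of those lower and 15.7% of those higher.

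Genes of the G1/S transition and DNA replication fell, with 26 lower and 3 higher of 37 and a median log2 fold change of -1.24. RNR1, the large subunit of ribonucleotide reductase, had 1238, 2054 and 1781 normalized reads in wild type and 185, 153 and 129 in the mutant. CDC21, thymidylate synthase, had 408, 519 and 489 against 62.6, 18.9 and 40.5, and TOS4, a G1/S regulator, had 203, 403 and 334 against 17.1, 21 and 6.32. MCM3, of the replicative helicase, fell by 1.06. The genes that rose were MBP1, the DNA-binding part of the MBF factor, at 0.38, RNR3 at 0.41 and SIC1, an inhibitor of the S phase cyclin kinase, at 0.48. When libraries were scaled by total reads, 0 genes of this list were called higher and 31 lower. Histone genes gave 5 lower and 2 higher of 11. HTA2, 94.1% identical to HTA1, fell from 2116, 2582 and 2676 to 403, 354 and 429, and HTB2 by 2.52, whereas the variant HTZ1 rose by 0.74.

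MBF binds the MluI cell cycle box, ACGCGT, which is shown in capitals in the CDC21 promoter at chrXV:467690-467889 on the minus strand, from 300 to 101 bases before the start codon.
CDC21: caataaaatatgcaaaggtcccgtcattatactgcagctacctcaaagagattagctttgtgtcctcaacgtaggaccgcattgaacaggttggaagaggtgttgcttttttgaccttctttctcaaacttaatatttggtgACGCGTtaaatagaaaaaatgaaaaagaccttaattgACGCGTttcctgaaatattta
The box occurred in 27% of the 37 G1/S promoters against 3.51% of all promoters. Over all called genes it occurred in 6.8% of those lower and 1.19% of those higher.

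Later cell cycle genes did not fall as a group, with 10 higher and 7 lower of 21. DSE3 and DSE4, daughter cell genes of cell separation, rose by 1.70 and 1.45 on the log2 scale. DSE4 had 1840, 1736 and 2069 normalized reads in wild type and 5498, 4894 and 4990 in the mutant. CDC20, an activator of the anaphase-promoting complex, rose by 1.22, while CLB2, the main mitotic cyclin, fell from 45.3, 84.4 and 58.9 to 19.3, 22 and 12.6.

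Genes of mating were lower. Both strains are MATα, and MF(ALPHA)1, the alpha-factor gene of that mating type, had 8536, 6695 and 6843 normalized reads in wild type and 1877, 2693 and 2010 in the mutant. Of 7 genes specific to MATα cells, 5 fell and 0 rose by limma, with 1 higher by DESeq2 and at an unadjusted p under 0.05. STE3, the a-factor receptor, was at -0.56 on the log2 scale and SAG1, the alpha-agglutinin, at -1.24. HMLALPHA1 fell by 0.80, but its sequence is identical to that of MATALPHA1. The low level of genes normally restricted to MATa cells fell too, in 5 of 7. AGA2, an adhesin subunit, had 228, 275 and 209 against 9.1, 11.5 and 13.9, STE2 fell by 1.39 and STE6, a transporter of a-factor, rose by 0.35, which was 0.13 and not called when scaled by total reads. Of 21 haploid and pheromone response genes, 13 fell and 2 rose. FAR1, the cyclin kinase inhibitor of pheromone arrest, had 1904, 2286 and 1901 against 394, 294 and 212, and AGA1 fell from 6302, 6328 and 6470 to 1569, 1397 and 1163. Sporulation and meiosis genes gave 3 lower and 2 higher of 19.

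Genes for the synthesis of sulfur amino acids, one-carbon units and purines were lower. Of 30 genes of sulfate assimilation and methionine, 16 fell and 4 rose. SAM2, S-adenosylmethionine synthetase, had 5440, 4958 and 5339 normalized reads in wild type and 1021, 888 and 1084 in the mutant, and CYS3, cystathionine gamma-lyase, fell by 2.16. The activator gene MET4 rose by 0.80. One-carbon and folate genes gave 13 lower and 2 higher of 18, with the glycine decarboxylase genes GCV1 and GCV2 at -2.16 and -2.41. Of 20 purine genes 14 fell and 0 rose, the latter by limma, edgeR, DESeq2 and at an unadjusted p under 0.05, with ADE4, the first enzyme of the pathway, at -1.67. Pyrimidine genes gave 4 lower and 3 higher of 9. URA1, dihydroorotate dehydrogenase, went from 1657, 1420 and 1513 to 14867, 11329 and 10446, and URA4 and URA10 rose by 1.32 and 1.52. Both strains carried ura3Δ0.

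Other amino acid routes were mixed. Arginine synthesis gave 5 lower and 1 higher of 13, with ARG5,6 at -1.57 and ARG82, a regulator of arginine genes, at 1.43. The Gcn4 core TGACTC occurred in 76.9% of these promoters against 7.86% of all. The core was not particular to this list. It occurred in 66.7% of the leucine, isoleucine and valine promoters and 52.6% of the aromatic and histidine ones. One-carbon and folate promoters held it in 66.7%. Over all called genes it occurred in 8.68% of those higher and 7.86% of those lower. Aromatic and histidine synthesis gave 9 lower and 1 higher of 19. The 1 gene that rose was ARO1, the pentafunctional enzyme of aromatic synthesis, at 0.66. Leucine, isoleucine and valine synthesis gave 2 lower and 1 higher of 12, the latter being LEU1, isopropylmalate isomerase, from 110770, 70711 and 55825 to 248990, 292300 and 296270. Breakdown of amino acids gave 8 higher and 6 lower of 20. ARO9 and ARO10, which turn aromatic amino acids into fusel alcohols, were lowest, and ARO10 had 30499, 25695 and 44865 against 2140, 1699 and 1168. The list median was 0.19, or -0.04 when libraries were scaled by total reads, with 7 higher and 8 lower. Thiamine synthesis gave 8 lower and 2 higher of 16, with THI7, the thiamine transporter, at -1.90 and THI4, of thiazole synthesis, at -1.71.

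Nitrogen use and nutrient permeases showed no common direction. Nitrogen genes gave 6 higher and 9 lower of 23. GDH3, a glutamate dehydrogenase of respiratory growth, rose 8.08-fold and 4.92-fold without replicate 1. DAL80, a GATA repressor, rose from 35.9, 27.9 and 33.1 to 171, 165 and 188, and DAL7, a malate synthase of allantoin breakdown, fell by 1.75. Of 26 permeases of amino acids and nucleobases 6 rose and 4 fell, with a median of 0.07 or, scaled by total reads, -0.15 with 5 higher and 8 lower. GAP1, the general amino acid permease, had 3701, 2863 and 3325 against 1555, 748 and 670, and ALP1, a permease of basic amino acids, rose from 378, 386 and 361 to 1575, 1121 and 1122. The arrestin adaptors that direct permease turnover gave 6 higher and 1 lower of 14, with a median of 0.10 or, scaled by total reads, -0.12 with 3 higher and 3 lower. CSR2 rose from 6452, 4750 and 5876 to 32020, 26312 and 31198. Actin patch and endocytosis genes gave 13 higher and 7 lower of 36, with ABP1 at 0.88 and ARC40, a subunit of the Arp2/3 complex, at -1.40. Their median was 0.17, and -0.06 when scaled by total reads, with 5 higher and 11 lower.

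Storage carbohydrate and stress genes rose in part. Of 20 trehalose and glycogen genes 10 rose and 1 fell. GSY1, a glycogen synthase, had 917, 1541 and 830 normalized reads in wild type and 5237, 6671 and 6256 in the mutant, and GAC1, a targeting subunit of its phosphatase, rose by 1.74. Of 34 general stress genes 18 rose and 4 fell. SPG1, a gene needed in stationary phase, rose from 305, 373 and 463 to 5920, 2724 and 3603, GIS1, a transcription factor of stationary phase entry, rose by 1.60, and MSN2, an activator of the stress response, fell by 0.44. The stress response element, AGGGG, occurred in 30% of promoters of all genes called higher and in 15.9% of those called lower, against 22.4% of all promoters. Antioxidant genes gave 14 higher and 5 lower of 29. SOD2, the mitochondrial superoxide dismutase, and GPX1, a glutathione peroxidase, rose by 1.50 and 2.20, and AHP1, a thiol peroxidase, fell by 1.10. Heat shock chaperones gave 11 higher and 6 lower of 26. CPR6, an Hsp90 co-chaperone, rose by 1.78, while SSB1, a ribosome-associated chaperone, fell by 1.57. The medians of the antioxidant and heat shock lists, 0.22 and 0.21, were -0.00 and -0.02 when scaled by total reads, with 11 higher and 7 lower and with 8 higher and 8 lower.

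Glycerol genes moved both ways. STL1, the glycerol importer, had 404, 446 and 350 normalized reads in wild type and 13580, 2280 and 2828 in the mutant, a rise of 11.1-fold and 6.37-fold without replicate 1. GUT1, glycerol kinase, rose from 3406, 3200 and 2946 to 20027, 13000 and 15581 and GUT2, the mitochondrial glycerol phosphate dehydrogenase, by 1.40. GPP1, a phosphatase of glycerol synthesis, fell from 37167, 12117 and 38817 to 2823, 1930 and 2607. In all, 7 of 20 glycerol and osmotic response genes rose and 8 fell.

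The remaining lists moved little or in both directions. Peroxisome and fatty acid oxidation genes gave 23 higher and 10 lower of 51, with PXA1, a fatty acid importer of the peroxisome, at 1.89 and FAA4, an acyl-CoA synthetase, at -2.47. Their median was 0.22, or -0.01 scaled by total reads. Autophagy gave 21 higher and 4 lower of 39, with ATG39, the receptor for the nuclear envelope, at 1.72, but 8 higher and 8 lower when scaled by total reads. Vacuolar proteases and the V-ATPase gave 6 higher and 5 lower of 26, in which all 6 rises were hydrolases, among them PRC1, carboxypeptidase Y, at 1.08, and scaling by total reads gave 3 higher and 11 lower. Zinc and copper genes gave 6 higher and 3 lower of 15, with SOD1 at 1.30 and ZRT2, a zinc transporter, at -1.09, or 3 higher and 6 lower when scaled by total reads. The proteasome gave 12 higher and 11 lower of 38, or 3 and 18 when scaled by total reads, and the unfolded protein response and secretion list 3 higher and 5 lower of 18. The pentose phosphate pathway gave 3 higher and 2 lower of 12, with a median of 0.07, or -0.15 scaled by total reads with 2 higher and 4 lower. ZWF1, its first enzyme, rose by 1.00 and SOL3 fell by 1.38. The phosphate regulon gave 6 higher and 8 lower of 23, with a median of 0.10, or -0.12 scaled by total reads with 8 lower and none of the 6 rises called, and PHO3, a thiamine-regulated acid phosphatase, at -2.95.

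**Figure D4:**
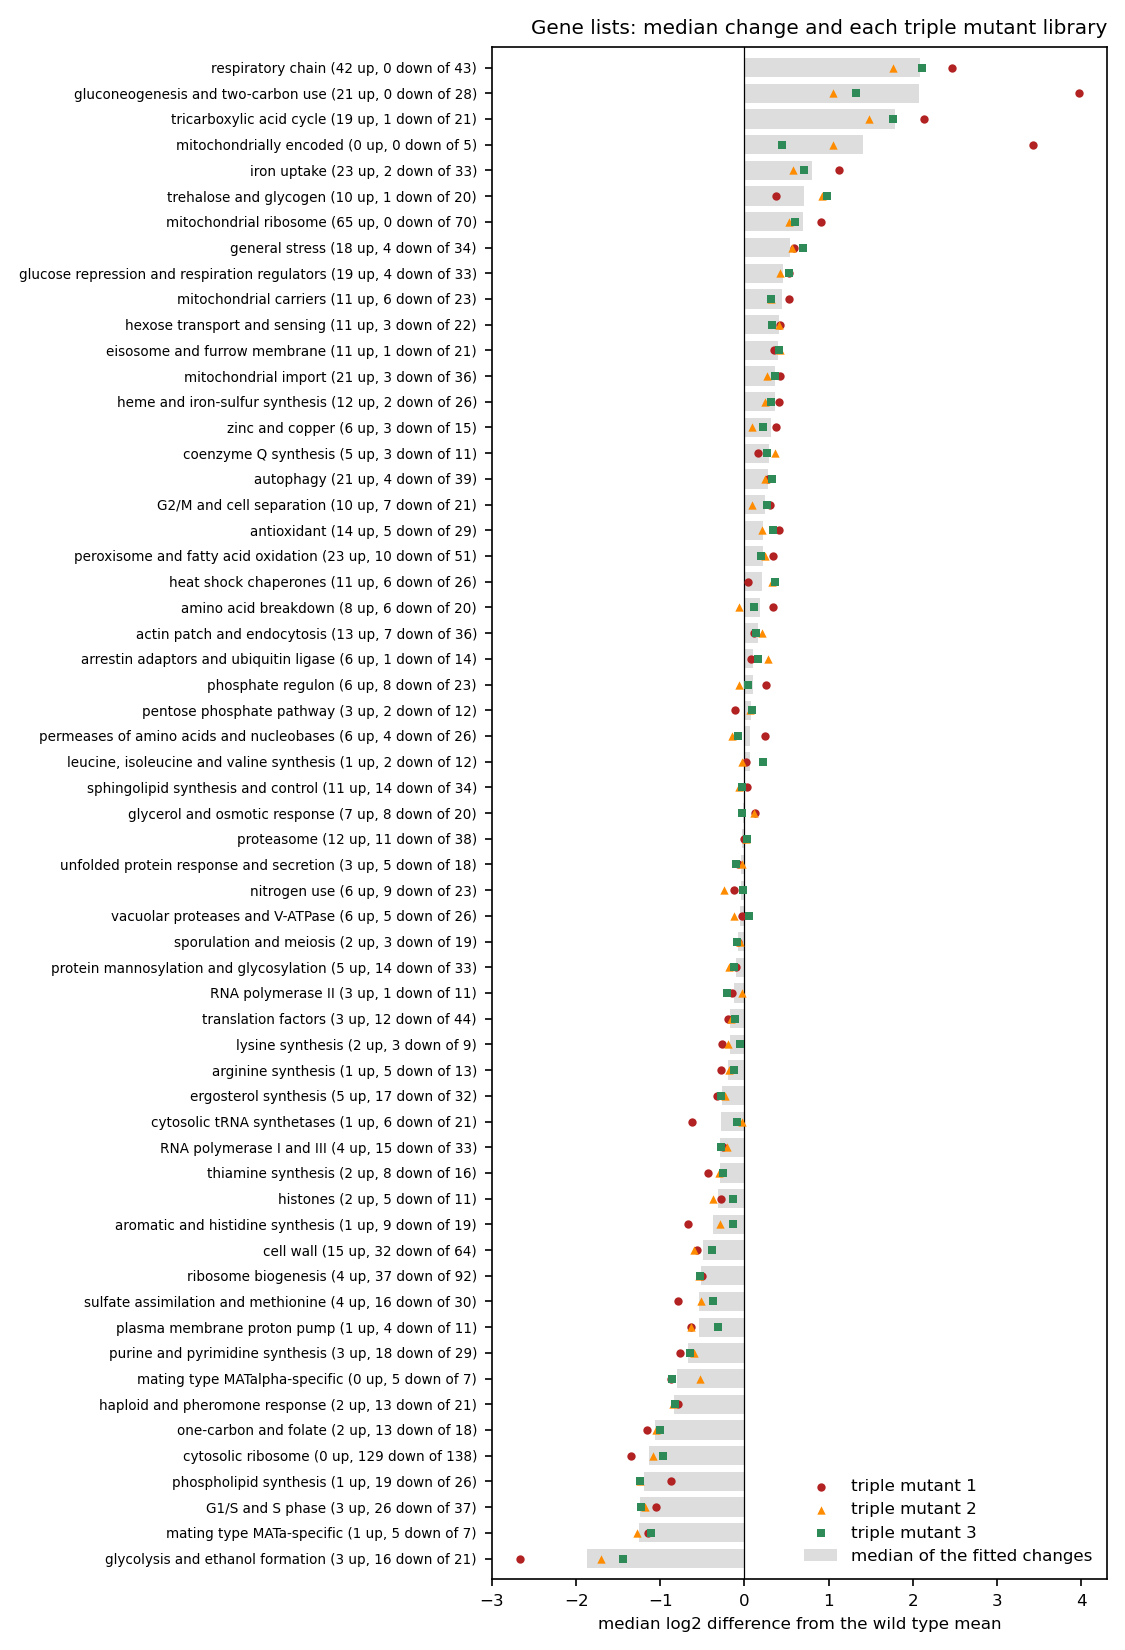
Median log2 difference from the wild type mean (horizontal) for each gene list. Bars are medians of the fitted changes, points are the 3 triple mutant libraries, and labels give members called higher and lower of those tested. Respiratory chain, gluconeogenesis and tricarboxylic acid cycle lie at the top, glycolysis at the bottom, and replicate 1 is far from the others in gluconeogenesis.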

How the data were processed

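Polyadenylated RNA of wild type and triple mutant yeast was sequenced in 3 libraries each. The first deposited table holds a signal per gene and library. Of its values, 100% were whole multiples of 1 step per library at a tolerance of 1e-06, the form of read counts divided by a size factor, and 1 step was taken as 1 read. The second deposited table holds values on a log2-like scale whose transformation is not stated, and served as an alternative. GSNAP, DESeq2, DESeq and the build R64 are named in the submitters' processing notes, without versions or roles. For the counting, annotation and strand setting were not given in the sources used here.

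The test planned for normalized values applied: limma 3.58.1 in R 4.3.3 (trend and robust) on log2(value + 1), which understates the change of low genes. It was two-sided, with all 9 libraries of the series in the fit, those of the pil1Δ strain included, and 6 compared. P-values were adjusted by Benjamini-Hochberg over all 5881 genes, with calls under 0.05. Genes needed a mean of 10 normalized reads. On whole reads recovered from the table, edgeR 4.0.16 called 3591 genes, and DESeq2 1.42.0 was also run. The procedure was also run on simulated counts with few changed genes, the same dispersion for every gene and no library that stood apart. That setting differs from these data, so the run is no support for the calls. An exact permutation test on 3 libraries against 3 cannot go below 0.1.

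The comparison and its 59 gene lists, which cover 1648 tested genes, were chosen with earlier results of these data known, and lists were described and not tested. Named genes are the deleted and marker genes, their paralogs and neighbours, up to 4 members per list with the smallest p, called members that go against their list, the 15 largest rises and falls with a mean of at least 50, the 10 genes in which triple mutant replicate 1 lay highest and lowest, and any member of a list of 12 or fewer. The genes YNL194C, FMP45, EIS1, MTH1, HAP4, COX5A, COX5B, FIT1, SIT1, ARN1, ARN2, ENB1, FET3, FTR1, AFT1, AFT2, TIS11, RPA49, GPP1, FBP1, ADH2, MAE1, FAS1, FAS2, RPS22B, SUR7 and INO1 were chosen after their values were seen, apart from any that a list already names.

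Promoters and gene positions came from the R64 reference genome, which held 6212 of the identifiers and lacked 3. The 884 genes that have no symbol keep their systematic names. For 522 genes another coding sequence matched 50% or more of the length at 90% identity or better, and 233 overlap another gene, so their reads are uncertain. LEU2, URA3, PHO84, CUP1-1, CUP1-2, CRS5, BUL3, IME4 and ATP8 were not analysed here. The values of 1 member of the tricarboxylic acid cycle list are not reported here.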

Additional observations from a re-analysis of the deposited data

How the results depend on the processing

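The reported fit called 3584 genes, and fits without 1 library called 3193 to 3491, of which 3155 to 3312 were shared with it. Genes called higher then numbered 1577 to 1735 and genes called lower 1613 to 1818, with 419 to 530 rises and 652 to 763 falls of at least 2-fold. The number called was 3553 with TMM scaling, 3402 with scaling by total reads, 3619 with no filter, 3497 with a minimum mean of 50, 3584 with a pseudocount of 5 and 3306 with only the 6 libraries compared. It was 3583 from the deposited log2 values, 3591 with edgeR and 3739 with DESeq2. In each of these settings 0 of the calls shared with the reported fit changed direction. Scaling by total reads gave 1029 genes higher in place of 1771, took the call from 54 named genes and turned 1, TFC1, a subunit of TFIIIC, from 0.20 to -0.030 (adjusted p = 0.832). The 600-base promoter window was the only alternative added after the data were seen.

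Same-numbered wild type and triple mutant libraries correlated in their deviations from the group means at 0.0509, 0.195 and 0.363, so the numbers were not taken as pairs. Each library nevertheless correlated best with its own number. Principal component 2 of all libraries, an axis with 6.57% of the variance, also split the libraries by number. On it replicate 2 was at -19.35 in wild type, -13.83 in pil1Δ and -7.09 in the triple mutant. Every other library had a positive value. Same-numbered libraries thus shared a part of their spread, and its source was not tested. The deposited names also give same-numbered libraries of the strains the same letter, but no label states a batch or pairs. With the replicate number as a block, limma called 4022 genes, 3559 of them shared, and its calls held 10 of the 12 genes of the mitochondrial genome. With the replicate block and only the 6 libraries it called 3330 genes, 3209 of them shared, and FMP45 was no longer called (adjusted p = 0.068).

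With 3 libraries per strain, precision is lowest for genes near 10 normalized reads.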
